A study of Mus musculus with 6 samples.

Results

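The chromatin loci of 6 genes known for self-renewal in blood stem cells and myeloid leukaemia (Meis1, Pbx3, Mecom, Msi2, Hlf and Prdm16) were examined in mouse AE9a leukaemia cells by ATAC-seq, an assay in which a transposase cuts and tags open DNA. The members were the peaks of the deposited table whose nearest transcription start site (TSS) belonged to 1 of these genes and lay within 100 kb. They numbered 54 of 175929 peaks, of which 21 belonged to Hlf, 14 to Msi2, 8 to Meis1, 6 to Mecom and 5 to Pbx3, and none (0) to Prdm16. The choice of genes used no measured value, but it was made with earlier results of these data known. All cells carried AE9a, a truncated AML1/ETO fusion protein delivered with a GFP retrovirus, 1 floxed allele of Usp18 (Usp18+/f) and UBCER-Cre, a Cre recombinase under the ubiquitin C promoter that tamoxifen switches on. The leukaemia was transplanted into recipient mice, which received oil or tamoxifen once ill, and 3 days after injections began their GFP+ Lin- c-Kit+ splenocytes were sorted. The oil group (Usp18+/f, replicates 1, 2 and 4) and the tamoxifen group (1 Usp18 allele deleted, replicates 1, 3 and 4) held 3 libraries each. Tamoxifen was given to 1 group only, so the drug and the deletion cannot be told apart. The labels leave unstated which libraries came from different mice. The study's text is not consistent here, as one statement would give each library its own mouse and another counts fewer replicates for this assay. Each n and p therefore refers to the spread between libraries, which may be technical in part. Each library had 57.4 to 74.7 M tags in total (M stands for 1000000), of which 17.5 to 21.1 M fell in peaks, and the members held 14.4 to 837 normalised tags each on average, and counting error weighs most on the lower ones. At the targeted gene, the Usp18 start-site peak held 459, 415 and 440 normalised tags after oil and 441, 468 and 438 after tamoxifen. A start-site peak does not report on the floxed part of the gene, so it checks neither the deletion nor the labels. Tamoxifen replicate 4 stood apart from the other tamoxifen libraries over all peaks. On the first principal component, with 47.4% of the variance, it lay at -10.9, between the oil libraries (-72.6 to -65.2) and tamoxifen replicates 1 and 3 (93.8 and 121).

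MEIS1 and PBX3 are TALE homeodomain proteins that bind DNA together with HOX proteins, and MEIS1 with HOXA9 drives acute myeloid leukaemia. MECOM, a zinc finger protein also known in its shorter form as EVI1, and PRDM16 are related PR domain proteins that maintain blood stem cells, and HLF is a PAR bZIP factor that marks them. MSI2 is an RNA-binding protein that sustains stem and leukaemia cells by controlling translation.

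The Meis1 locus held the members with the clearest difference between the groups, and 3 of its peaks are shown because the results turn on them. All 3 lie in introns of Meis1, a gene of the minus strand, and are printed from the plus strand of the mm10 reference (GRCm38, RefSeq). Capitals mark matches on either strand to short motif letters, which are AGATAA for GATA factors, GAGGAA for PU.1 (read as TTCCTC from the opposite strand), TGACAG for TALE factors and TGTGGT for RUNX factors. The first peak is in intron 7 and the other two are in intron 8.
Meis1 +48844 bp, chr11:18970022-18970228: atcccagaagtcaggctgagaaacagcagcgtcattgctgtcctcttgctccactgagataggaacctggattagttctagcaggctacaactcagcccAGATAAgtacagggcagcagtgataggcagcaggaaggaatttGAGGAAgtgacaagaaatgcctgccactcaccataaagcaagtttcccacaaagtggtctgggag
Meis1 +93877 bp, chr11:18924968-18925216: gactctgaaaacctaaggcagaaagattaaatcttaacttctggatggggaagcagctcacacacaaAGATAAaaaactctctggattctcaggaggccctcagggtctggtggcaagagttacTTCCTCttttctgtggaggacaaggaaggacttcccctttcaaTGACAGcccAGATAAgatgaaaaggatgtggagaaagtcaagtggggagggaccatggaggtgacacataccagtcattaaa
Meis1 +95413 bp, chr11:18923421-18923692: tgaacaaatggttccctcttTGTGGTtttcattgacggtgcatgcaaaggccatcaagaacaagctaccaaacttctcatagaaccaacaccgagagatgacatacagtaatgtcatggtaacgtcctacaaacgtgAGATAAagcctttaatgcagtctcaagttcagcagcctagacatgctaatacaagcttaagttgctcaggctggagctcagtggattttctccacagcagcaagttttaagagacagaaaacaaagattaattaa
In the peak at +48844 bp the GATA letters began at base 100 and the PU.1 letters at base 143. In the peak at +93877 bp GATA letters began at bases 68 and 177, PU.1 letters at base 125 on the minus strand and TALE letters at base 168. In the peak at +95413 bp the RUNX letters began at base 21 and the GATA letters at base 138. A match of letters is a description and not a binding site.

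Tags are given after division by DESeq2 size factors, and a log2 fold change is tamoxifen over oil from a DESeq2 Wald test fitted to all peaks, with the Benjamini-Hochberg adjustment over all of them. The peak at +48844 bp held 128, 90.7 and 120 tags in oil replicates 1, 2 and 4, and 153, 202 and 224 in tamoxifen replicates 1, 3 and 4. Each tamoxifen library lay above each oil library, and tamoxifen replicate 4 was the highest. The mean rose from 113 to 193 tags, a log2 fold change of 0.77 (SE 0.18, adjusted p = 0.0042). The peak at +95413 bp held 33.1, 31.2 and 39.4 tags after oil, and 73.5, 80.2 and 57.7 after tamoxifen. The groups again did not overlap. This peak rose by a log2 fold change of 1.02 (SE 0.27, adjusted p = 0.021), or 2.03-fold, and was the 1 member past the study's threshold of a fold change over 2 with an adjusted p under 0.05. Across all peaks 0.654% passed that threshold.

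The Meis1 peak at the start site (-43 bp, chr11:19018896-19019129, annotated promoter-TSS) held 68.4, 44.9 and 50.2 tags after oil and 94.7, 82.4 and 75.4 after tamoxifen. The groups did not overlap, but the log2 fold change of 0.64 (SE 0.24) missed the threshold with an adjusted p of 0.24. The peak at -5690 bp, upstream of the gene, gave 43.0, 41.0 and 34.0 tags against 56.1, 66.9 and 57.7, a log2 fold change of 0.62 (SE 0.27, adjusted p = 0.40). A second intron 7 peak, at +61648 bp, gave 33.1, 21.5 and 23.3 tags against 35.8, 41.2 and 50.3, with a log2 fold change of 0.72 (SE 0.34, adjusted p = 0.46). These 3 peaks lay higher in every tamoxifen library without passing the test. The peak at +93877 bp held 47.7% of the tags of the locus, with 333, 332 and 347 tags after oil and 397, 370 and 395 after tamoxifen. It also did not overlap between groups, but its log2 fold change was the smaller value of 0.20 (SE 0.11, adjusted p = 0.59). The other two intron 8 peaks, at +94962 and +94736 bp, were low in all libraries, with 15.5 to 23.4 tags in each, and their log2 fold changes were -0.10 and 0.08 with overlapping groups. Intron 8 thus held both the peak past the fold threshold and, close to it, peaks near 0 change.

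**Figure D1:**
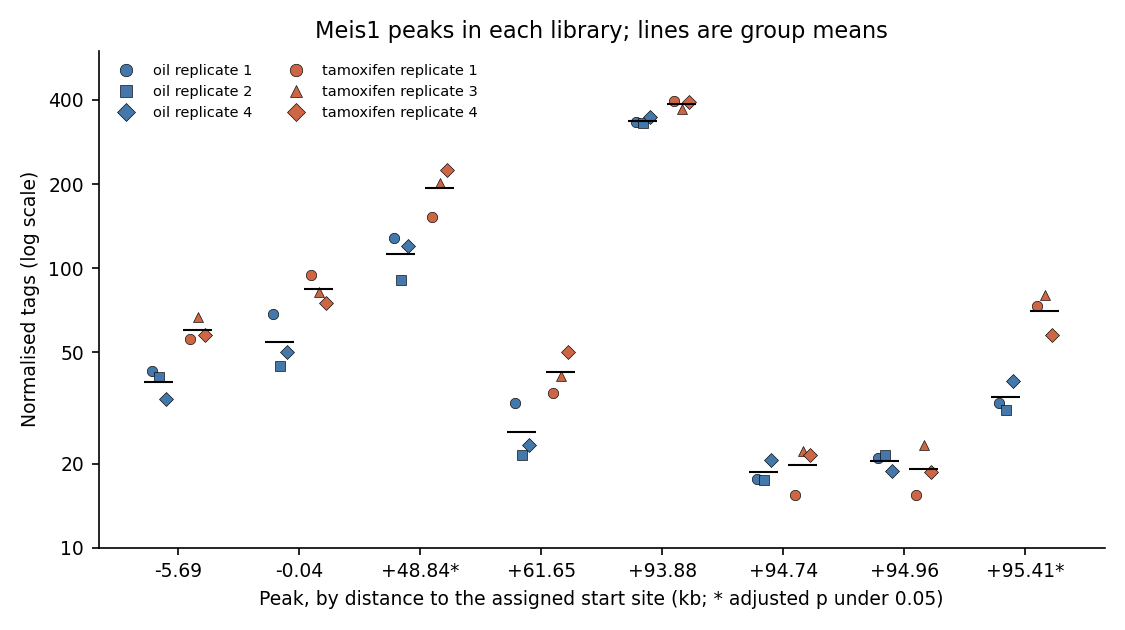
Normalised tags (log axis) of the 8 Meis1 peaks in each of the 6 libraries, ordered by distance to the assigned start site in kb, with oil in blue, tamoxifen in orange and lines at the group means. In 6 of the 8 peaks all tamoxifen libraries lie above all oil libraries, and the 2 lowest peaks overlap.

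The summed tags of the 8 Meis1 peaks were 677, 600 and 653 after oil and 841, 888 and 900 after tamoxifen. The lowest tamoxifen library exceeded the highest oil library. The oil mean was 643 ± 39.7 (SD, n = 3) and the tamoxifen mean 876 ± 31.4 (SD, n = 3), with a log2 difference of 0.45 (exact two-sided permutation test over 20 assignments, p = 0.1, the smallest that 3 against 3 libraries allow, for 5 loci compared). Without the 2 peaks past the threshold the other 6 still summed to 516, 478 and 494 after oil and 615, 606 and 618 after tamoxifen, again without overlap. In 7 of the 8 peaks the log2 fold change was above 0, and the median was 0.63 against -0.00 over all peaks. In 6 of the 8, all tamoxifen libraries lay above all oil libraries, as did 11.8% of all peaks. Set beside 12740 genes with 3 or more peaks and 300 or more tags, the change of the Meis1 sum exceeded that of 98.3%. In 14.8% of these genes the sums of all tamoxifen libraries lay above those of all oil libraries. In bulk cells, more cells with an open site and a more open site per cell cannot be told apart.

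Although tamoxifen replicate 4 stood apart over all peaks, it was not close to oil at the Meis1 locus, and its sum of 900 was the highest of the 6. Without it, the peak at +48844 bp gave a log2 fold change of 0.65 (adjusted p = 0.031) and that at +95413 bp gave 1.15 (adjusted p = 0.0050). Other libraries mattered more for the calls. Without oil replicate 2 the adjusted p values of these peaks were 0.20 and 0.28, and without tamoxifen replicate 3 they were 0.11 and 0.40. The peak at +95413 bp also missed the threshold without oil replicate 1 (adjusted p = 0.20), oil replicate 4 (0.094) or tamoxifen replicate 1 (0.17), while its log2 fold change stayed between 0.92 and 1.15 over the 6 omissions.

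**Figure D2:**
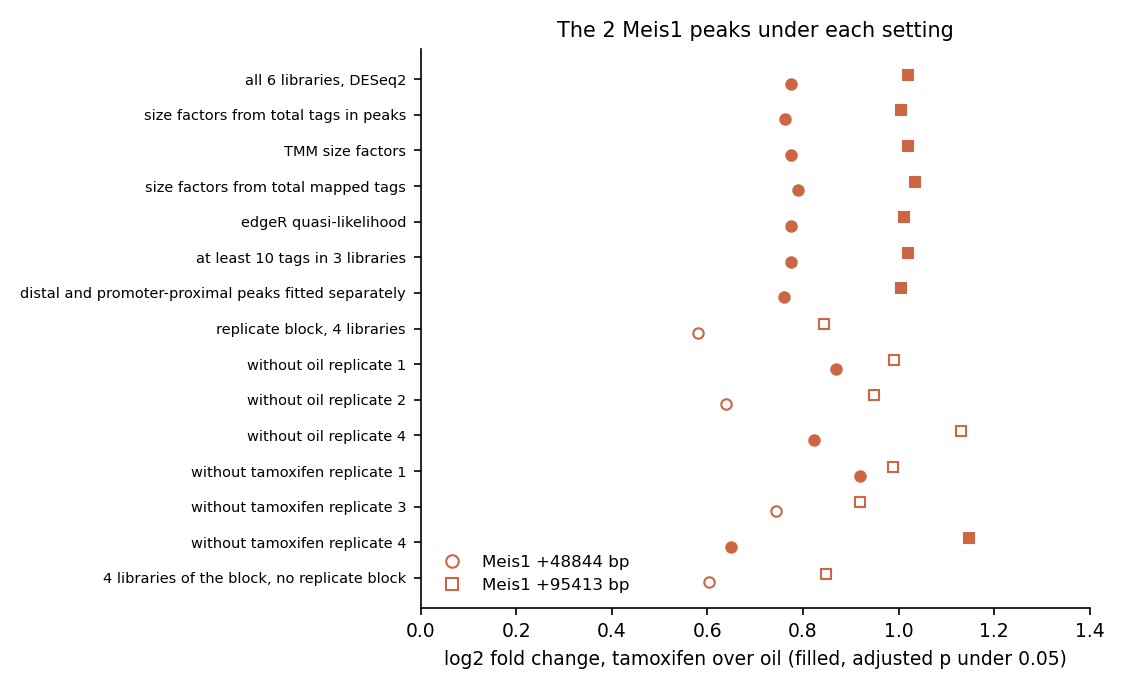
Log2 fold change of the Meis1 peaks at +48844 bp (circles) and +95413 bp (squares) under each setting, with filled symbols where the adjusted p is under 0.05. Every value lies above 0.5, both symbols are filled for all settings with 6 libraries, and 1 or both are open in 5 of the 6 settings that leave out 1 library and in both settings with 4 libraries.

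Markers of the sorted cells and of other blood lineages were read with the same distance rule. Kit, which encodes the sorted receptor c-Kit, had an open start site with 757 and 787 normalised tags on average after oil and tamoxifen. The summed tags of 4 progenitor genes (Kit, Cd34, Myb and Mpo, 62 peaks) ran from 5953 to 6134 after oil and from 6200 to 6778 after tamoxifen, with 3 peaks past the threshold higher, all at Cd34. Those of 5 T cell genes (17 peaks) ran from 906 to 1040 against 1107 to 1169, with 1 peak higher, at Cd3d. Those of 6 mature myeloid genes (45 peaks) ran from 2438 to 2530 against 2578 to 2729, with no (0) peak past the threshold in DESeq2. At an unadjusted p under 0.05, 4 of these peaks were higher and 1 lower (10880 and 4988 of all 175929 peaks were). The summed tags of 6 erythroid genes (79 peaks) ran from 9340 to 9746 against 8311 to 9214, with 2 peaks higher and 3 lower. Those of 5 B cell genes overlapped between groups (1462 to 1558 against 1458 to 1684, 27 peaks, none at Ms4a1). The progenitor, T cell and myeloid sums were thus higher and the erythroid sum lower in every tamoxifen library. Not all genes of a list moved alike. Among progenitor genes Cd34 and Mpo were higher in every tamoxifen library, Kit overlapped and Myb was lower in each. Among T cell genes Cd3d, Cd3e and Cd2 were higher in every tamoxifen library, and Cd3g and Lck overlapped. Among myeloid genes Adgre1 was higher and Cd14 lower in every tamoxifen library, and the others overlapped. Of the tamoxifen libraries, replicate 4 had the highest Meis1 sum. Its progenitor, T cell and myeloid sums were the lowest of that group and so nearest oil. Its erythroid sum of 8311 was also the lowest and so farthest from oil (9214 and 8973 in replicates 1 and 3). Its B cell sum of 1684 was the highest. The part of these lists in the Meis1 result was not tested.

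Over all 54 members, the log2 fold change ran from -0.56 to 1.02 with a median of 0.01, and 28 peaks were above 0 and 26 below. All 54 received an adjusted p. At an adjusted p under 0.05, 2 members passed, where 1.39% of all peaks did. Both were higher after tamoxifen, a direction in which 1.22% of all peaks passed. None (0) passed with fewer tags in DESeq2, as against 0.167% of all peaks, and edgeR gave the same counts of 2 and 0. Before adjustment, 6 members with more tags had a p under 0.05 in DESeq2, 5 of them at Meis1 and 1 at Pbx3, and 0 with fewer tags did. Over all 175929 peaks, 10880 with more tags and 4988 with fewer did. All tamoxifen libraries lay above all oil libraries in 10 members (18.5%, against 11.8% of all peaks), of which 6 were at Meis1 and 4 among the 46 other members. They lay below in 6 members (11.1%, against 9.99% of all peaks). Of the members, 40 were in the peak lists of both groups, 11 in the oil list alone and 3 in the tamoxifen list alone. Of all 175929 peaks, 125658 were in both lists, 30553 in the oil list alone and 19718 in the tamoxifen list alone. Both Meis1 peaks past the threshold were in the lists of both groups, so these were sites already open after oil.

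**Figure D3:**
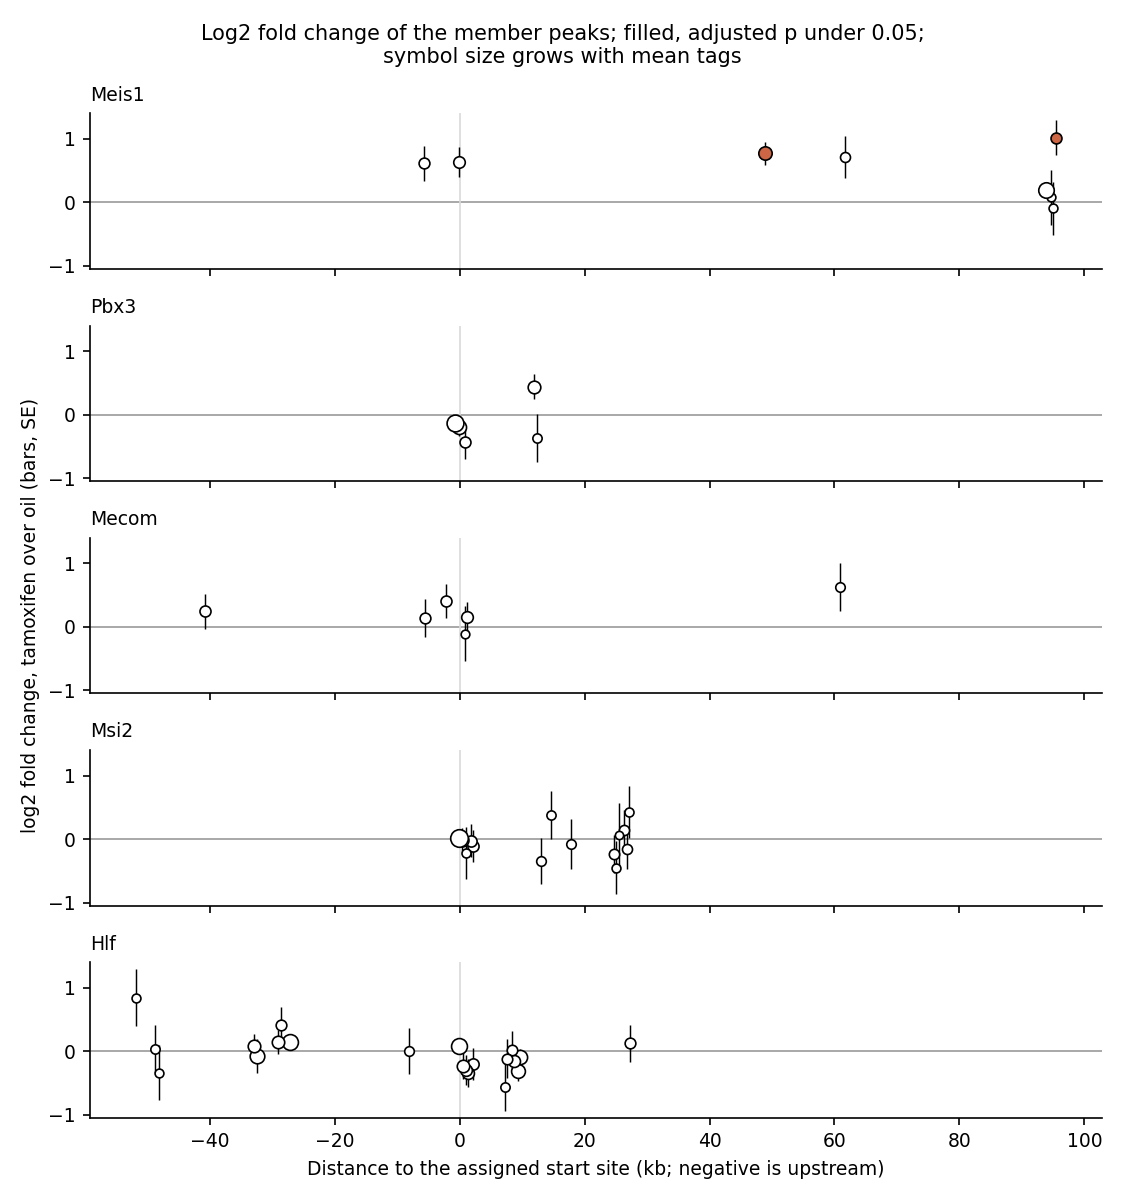
Log2 fold change with its standard error for the 54 member peaks, by distance to the assigned start site in kb, 1 panel per gene, with symbol size by mean tags. The 2 filled peaks (adjusted p under 0.05) are at Meis1, and the values of the other genes scatter around 0 without passing.

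**Figure D4:**
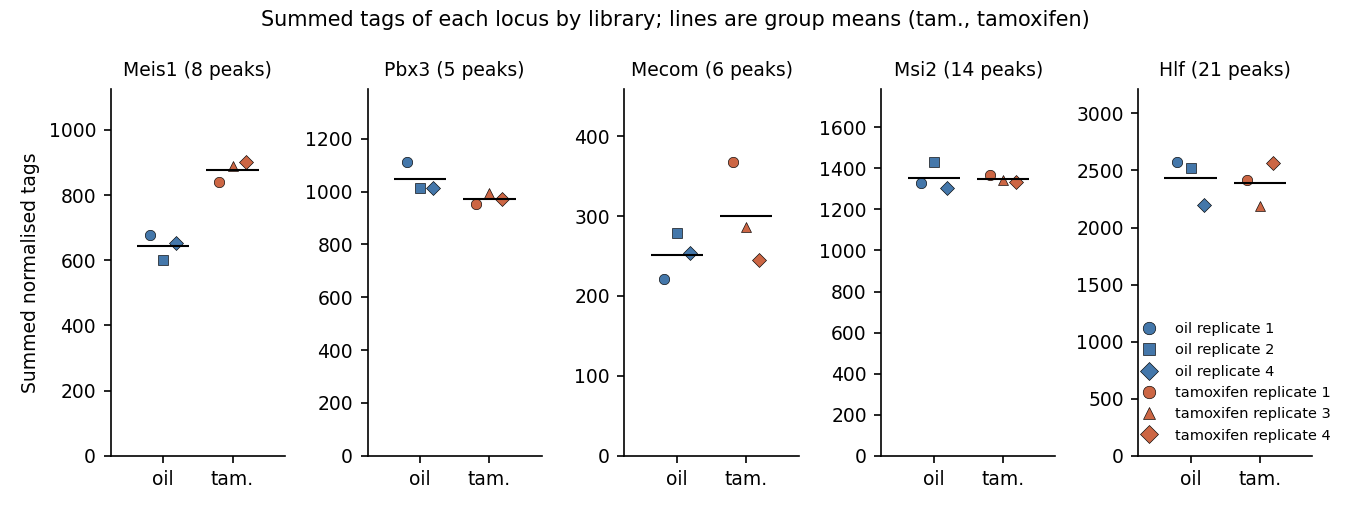
Summed normalised tags of each locus in the 6 libraries (axes start at 0, each panel with its own scale), with lines at the group means. The groups are apart at Meis1, where tamoxifen is higher, and at Pbx3, where it is lower by less, and they overlap at Mecom, Msi2 and Hlf. Of 12740 genes, 14.8% are apart with tamoxifen higher and 12.2% with tamoxifen lower.

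The Pbx3 locus, which encodes the DNA-binding partner of MEIS1, summed to 1111, 1015 and 1014 tags after oil and 953, 996 and 970 after tamoxifen. Here every tamoxifen library lay below every oil library, as in 12.2% of the 12740 genes set beside Meis1. The log2 difference was only -0.10 and the exact permutation p was 0.1, again the smallest possible. The 3 peaks near the start site carried most of it. The highest, at -754 bp (chr2:34372639-34372959, promoter-TSS), held 671, 638 and 629 tags after oil and 553, 586 and 622 after tamoxifen, a log2 fold change of -0.14 (SE 0.09, adjusted p = 0.74). The peak at +813 bp in intron 1 held 66.2, 60.5 and 55.5 tags against 40.6, 40.1 and 54.0, with a value of -0.43 (SE 0.27, adjusted p = 0.71). The start-site peak at -147 bp overlapped between groups (239, 199 and 217 against 213, 203 and 160). In the opposite direction, the intron 2 peak at +11839 bp (chr2:34360043-34360370) held 108, 92.6 and 82.4 tags after oil and 123, 147 and 115 after tamoxifen. Its groups did not overlap and its log2 fold change was 0.44 (SE 0.19, unadjusted p = 0.021 in DESeq2, adjusted p = 0.38). The neighbouring peak at +12362 bp, from the oil list alone, was lower in every tamoxifen library (26.5, 25.4 and 30.5 against 24.2, 20.1 and 19.6). No Pbx3 peak passed the adjusted threshold. Without oil replicate 1 the log2 difference of the sum was -0.06 (exact permutation p = 0.2), and without tamoxifen replicate 4 it was -0.10 (exact permutation p = 0.3).

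Mecom had the lowest tags of the 5 loci, with sums of 222, 279 and 254 after oil and 367, 286 and 245 after tamoxifen. The groups overlapped, with tamoxifen replicate 1 the highest library and tamoxifen replicate 4 within the oil range. The log2 difference was 0.24 (exact permutation p = 0.4). It turned on single libraries, at 0.37 without tamoxifen replicate 4 (exact permutation p = 0.2), 0.15 without oil replicate 1 (p = 0.7) and 0.08 without tamoxifen replicate 1 (p = 0.6). The peak with the smallest p, at +60808 bp in intron 1 (chr3:30448741-30448994), was in the tamoxifen list alone. It held 21, 21.5 and 21.5 tags after oil and 38.7, 40.1 and 20.5 after tamoxifen, a log2 fold change of 0.63 (SE 0.38, adjusted p = 0.70). Tamoxifen replicates 1 and 3 were high there and replicate 4 was at the oil level, and the value was 0.89 without replicate 4 (adjusted p = 0.23), 0.50 without replicate 1 and 0.47 without replicate 3, with no adjusted p from DESeq2 in either of the latter. The peak nearest its assigned start site, at +872 bp and from the oil list alone, was the 1 Mecom peak with a value below 0. It held 15.4, 21.5 and 18.8 tags after oil and 17.4, 17.8 and 16.8 after tamoxifen, with overlapping groups (log2 fold change -0.11, SE 0.44, adjusted p = 0.99). A peak at -2224 bp from a start site inside the gene, that of a shorter transcript, held 41.9, 46.8 and 49.3 tags against 71.5, 64.6 and 48.4 (log2 fold change 0.41, adjusted p = 0.73). The highest Mecom peak, at +1171 bp, overlapped between groups (61.8, 74.1 and 69.9 against 101, 59.1 and 68.9).

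Msi2 differed least. Its 14 peaks summed to 1328, 1430 and 1305 tags after oil and 1367, 1344 and 1332 after tamoxifen, with overlapping groups, a log2 difference of -0.01 and an exact permutation p of 1. The start-site peak at -81 bp (chr11:88718186-88718511), the highest of all members, held 825, 887 and 782 tags after oil and 841, 880 and 806 after tamoxifen. Its log2 fold change was 0.02 (SE 0.08, adjusted p = 0.99). The other 13 peaks held from 14.4 to 128 tags on average. Among 9 peaks in intron 5, 1 lay higher in every tamoxifen library and 1 lower, the latter being +25044 bp with 19.9, 25.4 and 24.2 tags against 15.5, 16.7 and 18.6 (log2 fold change -0.45, SE 0.42, adjusted p = 0.88). The largest positive value was at +27078 bp, from the tamoxifen list alone, with 17.7, 15.6 and 21.5 tags against 29.0, 24.5 and 20.5 (log2 fold change 0.43, SE 0.41, adjusted p = 0.89). The Msi2 gene is 379 kb long and held 77 peaks in its body, of which 63 were assigned to the nearer start sites of 0610039H22Rik and Mir378b and so were not members. None (0) of those 63 passed the adjusted threshold in DESeq2. At an unadjusted p under 0.05, 7 had more and 1 had fewer tags (10880 and 4988 of all 175929 peaks did). The median log2 fold change of the 63 was 0.03 and their sums overlapped (4667 to 4833 after oil, 4652 to 5030 after tamoxifen).

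Hlf had the most peaks and tags, with sums of 2571, 2519 and 2201 after oil and 2416, 2192 and 2564 after tamoxifen. The groups overlapped almost fully (log2 difference -0.02, exact permutation p = 0.7). Its start-site peak at -42 bp (chr11:90390828-90391090) held 407, 447 and 379 tags after oil and 437, 449 and 426 after tamoxifen, a log2 fold change of 0.09 (SE 0.10, adjusted p = 0.93). A peak of like height at -27155 bp, upstream of the gene, held 432, 401 and 357 tags against 448, 439 and 434, so that every tamoxifen library was above every oil library by a little (log2 fold change 0.15, SE 0.11, adjusted p = 0.77). In intron 2 the peak at +9388 bp (chr11:90381429-90381630) was lower in every tamoxifen library, with 206, 206 and 194 tags against 183, 123 and 180. Its log2 fold change was -0.31 (SE 0.16, adjusted p = 0.56), and -0.16 without tamoxifen replicate 3, the lowest library. Next to it, the peak at +9654 bp overlapped (237, 220 and 210 against 213, 215 and 197). The farthest upstream peak, at -51749 bp and from the tamoxifen list alone, held 22.1, 10.7 and 10.8 tags against 27.1, 30.1 and 20.5 (log2 fold change 0.85, SE 0.44, adjusted p = 0.58). Of the 11 peaks downstream of the start site, 9 had a log2 fold change below 0, and of the 10 at the start site and upstream, 8 had one above 0. This split was made after the values were seen, no peak of either part passed the threshold, and the sums of both parts overlapped between groups (937 to 1105 against 796 to 994 downstream, 1264 to 1479 against 1396 to 1570 upstream).

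No peak was assigned to Prdm16. The peak nearest its annotated start site lay 112490 bp away and was assigned to Actrt2, and 2 peaks in the body of the gene were assigned to Arhgef16. The intron 12 peak among them (chr4:154328902-154329122) held 57.4, 51.7 and 52.9 tags after oil and 77.3, 72.4 and 52.1 after tamoxifen. Tamoxifen replicate 4 lay at the oil level, and the log2 fold change of 0.32 (SE 0.25) had an adjusted p of 0.84. The exon 13 peak held 21.5 to 28.7 tags after oil and 25.6 to 40.6 after tamoxifen (adjusted p = 0.85). A start site without a peak in either list was not called open by the authors' peak finding, which sets no measured level for it.

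Levels were compared between genes as normalised tags per kb of the peak nearest the assigned start site. After oil the order was Msi2 with 2551 ± 162, Hlf with 1562 ± 129, Pbx3 with 743 ± 68.9, Meis1 with 233 ± 52.7 and Mecom with 90.1 ± 14.6 (SD, n = 3 each). After tamoxifen the values were 2584 ± 113, 1663 ± 42.9, 653 ± 94.9, 360 ± 41.7 and 84.1 ± 2.60 in the same order (SD, n = 3 each). No neighbours in this order overlapped over the 6 libraries. The order turned with the peak taken. The Mecom peak lay 872 bp past its assigned start site, which is inside the annotated gene and not at its outer start. The peak nearest that outer start, 2442 bp from it, was the one at -40774 bp. It held 39.7, 54.6 and 56.4 tags after oil and 69.6, 66.9 and 43.8 after tamoxifen. The higher Mecom peak at +1171 bp had 254 ± 23.2 tags per kb after oil, above Meis1. The Pbx3 peak at -754 bp had 2012 ± 68.5 (SD, n = 3 each), above Hlf. Across 53478 promoter-proximal peaks (within 3 kb of a start site) the median level after oil was 293 per kb, so that the nearest peaks of Meis1 and Mecom lay under the median and those of the other three above it, with Msi2 above 92.1% of these peaks.

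**Figure D5:**
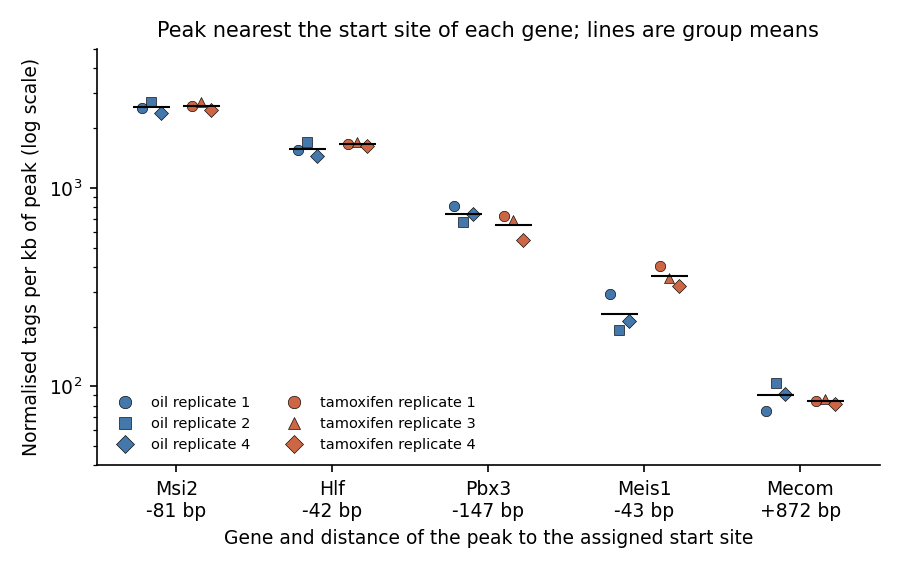
Normalised tags per kb of peak (log axis) in each library for the peak of each gene nearest its assigned start site, with oil in blue, tamoxifen in orange and lines at the group means. For these nearest peaks Msi2 is highest and Mecom lowest, the 5 genes do not overlap, and Meis1 alone of them has all tamoxifen libraries above all oil libraries.

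Beyond 100 kb, 6 further peaks were assigned to these genes and were not members. The Meis1 peak at +140725 bp, past the end of the gene, held 23.2, 32.2 and 27.8 tags after oil and 53.2, 64.6 and 41.0 after tamoxifen (log2 fold change 0.92, SE 0.31, adjusted p = 0.14). A Mecom peak at -196110 bp held 13.2, 13.7 and 16.1 tags against 31.9, 41.2 and 26.1 (log2 fold change 1.19, SE 0.40, adjusted p = 0.13). The Hlf peaks at -123380 and -122143 bp, which lie in an intron of a neighbouring gene, gave log2 fold changes of 0.95 and 0.58 (adjusted p = 0.13 and 0.25). In these 4 peaks every tamoxifen library was above every oil library, as in 11.8% of all peaks. The other two were Meis1 peaks with overlapping groups, at +141368 bp (68.4, 62.4 and 60.9 tags against 93.8, 101 and 67.0, adjusted p = 0.56) and at +197400 bp (27.6, 13.7 and 32.3 against 37.7, 66.9 and 29.8, adjusted p = 0.41). None (0) of the 6 passed the adjusted threshold in DESeq2, and 5 had more tags at an unadjusted p under 0.05. Of all 175929 peaks, 10880 did.

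The central 200 bp of the members were searched for 7 motifs on both strands, and the shares were set beside those of 175738 peaks. GATA letters (AGATAA) were found in 12 of 54 members, or 22.2%, against 15.1% of all peaks, and 5 of these 12 were at Meis1. PU.1 letters (GAGGAA) were found in 29.6% against 21.6%, and TALE letters (TGACAG) in 20.4% against 15.6%. RUNX letters (TGTGGT), those bound by the normal counterpart of AML1/ETO, were found in 4 members, or 7.41%, against 18.7%. AP-1 letters (TGANTCA) were found in 1 member (1.85% against 6.61%), CEBP letters (TTGCNNAA) in 3 (5.56% against 6.45%) and PAR bZIP letters (TTANGTAA), the kind that HLF binds, in 0 (against 1.32%). The RUNX match of the Meis1 peak at +95413 bp lay outside its central 200 bp. The median GC content was 50.04% in members and 50.2% in all peaks, and within the members it ran from 47.8% at Meis1 to 65.3% at Pbx3.

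The 3 genes whose summed tags followed those of Meis1 most closely over the 6 libraries were St6gal1, Itpr1 and Gas7, with Pearson's r of 0.99 each among 12739 genes compared. For Pbx3 they were Nudt18, Cox17 and Irf2bp2 (r of 0.995, 0.988 and 0.987). For Msi2 they were Phf21a, Trmt12 and Chmp4b (r of 0.987, 0.980 and 0.977), and for Hlf they were Smad3, Abcg1 and Gsg1l (r of 0.988, 0.970 and 0.955). Mecom had fewer than 300 tags and was not compared. With 6 libraries shared by all values and the best of many genes taken, such r values are a description. Among themselves Meis1, Pbx3, Msi2 and Hlf gave r from -0.59 (Meis1 and Pbx3) to 0.35 (Msi2 and Hlf).

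Other genes of the same programmes were taken from a list of 25, of which 24 had peaks (247 in all, none for Prdm2). Of these peaks 5 passed the adjusted threshold with more tags (1.22% of all peaks did) and 0 with fewer in DESeq2 (0.167% of all peaks), as against 24 and 2 at an unadjusted p under 0.05, and the median log2 fold change was -0.00. The 9 other TALE genes, such as Meis2 and Pknox1, had 90 peaks and none (0) passed in either direction in DESeq2 (5 with more and 1 with fewer tags at an unadjusted p under 0.05). Ctbp2, which encodes a corepressor that MECOM and PRDM16 recruit, held 3 of the 5. Its promoter peak at -759 bp held 137, 172 and 211 tags after oil and 402, 368 and 279 after tamoxifen, without overlap, and rose by a log2 fold change of 1.01 (SE 0.16, adjusted p = 6.2e-07). Igf2bp2, the gene of an RNA-binding protein that stabilises its target mRNAs, rose at +42030 bp from 30.9, 21.5 and 21.5 to 73.5, 89.1 and 42.8 tags (log2 fold change 1.48, SE 0.33, adjusted p = 0.0014). Tef, a PAR bZIP relative of Hlf, rose at +3154 bp by 0.67 (SE 0.19, adjusted p = 0.040). The count of 5 was 14 without tamoxifen replicate 4, 0 without tamoxifen replicate 3, 1 without oil replicate 2, 2 without each of the other three and 13 by edgeR. Over all peaks, the passing peaks moved as well, from 2154 higher and 294 lower to 3987 and 2554 without tamoxifen replicate 4, 549 and 79 without tamoxifen replicate 3, and 4219 and 917 by edgeR.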

How the data were processed

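Reads were mapped by the authors to mm10 with Bowtie2, and peaks were called and merged with HOMER. The deposited values are raw tags per merged peak, an estimated count in steps of 0.5, not normalised and capped at 3 tags for each position. The submitters' processing notes name the same tools, with versions not given in the sources used here. Peaks came from lists made for each group from the compared libraries, so a site closed in both groups is missing. Tags were rounded and tested over all 175929 peaks with DESeq2 1.42.0 (R 4.3.3, Wald test at its defaults, two-sided). Passing meant an adjusted p under 0.05, and called also a fold change over 2, as in the study's methods. The study tested peaks over 3000 bp from a TSS alone, which was run as an alternative, as were edgeR 4.0.16, other size factors, a filter of 10 tags in 3 libraries, other distances and omitted libraries. Locus sums of normalised tags were compared by an exact permutation test over 20 assignments. Scripts used Python 3.11.15, numpy 2.4.6 and pandas 2.3.3, and the fits were tested on simulated data. The start sites implied by the distances of all 54 members fell within 5 bp of a reference TSS. No (0) peak on 21 chromosomes ended beyond the reference.

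For each gene, the text gives at least the peak nearest the TSS, the highest peak, the peak with the smallest p in each direction and every peak past the threshold. Members and gene lists were chosen with earlier results of these data known. The 6 libraries follow the sample titles. Chi-square per degree of freedom was taken for pairs within a group. It was 1.04 to 1.22 for oil pairs and 1.49 to 2.68 for tamoxifen pairs. A value near 1 is what counting error alone gives, so the oil values cannot tell separate mice from technical repeats. No library was counted as a repeat.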

Additional observations from a re-analysis of the deposited data

How the results depend on the processing

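With 6 libraries, the count of 2 passing and 1 called member held under the other size factors, edgeR, the low-tag filter and separate fits. Leaving out 1 library gave 0 to 2 passing and 0 to 1 called members, and 0 to 14 passing peaks among the other self-renewal genes, for which edgeR gave 13. With the replicate number as a block (4 libraries, numbers 1 and 4) 0 members passed and 0 were called, as in the same 4 libraries without the block (0 and 0, chosen after seeing the data), where fewer libraries were tested. DESeq2 gave no adjusted p to 17 members in the block, 10 in those 4 libraries and 7 to 17 with 1 library left out, but gave one to both passing Meis1 peaks in each. Libraries that share a number did not deviate together (correlations of their deviations -0.04 and 0.05), so the numbers were not taken as pairs. Within 50 kb, 1 passed and 0 were called, and at a fold change over 1.5, 2 were called. The Meis1 sum kept its sign throughout (0.39 to 0.71 on the log2 scale), as did those of Pbx3 (-0.14 to -0.06) and Mecom (0.08 to 0.37). The Msi2 sum, near 0, changed sign with total mapped tags (0.0051) and in the replicate block (0.035), and ran from -0.032 to 0.033 over omitted libraries. The Hlf sum changed sign with peaks at any distance (0.0088) and in the replicate block (0.065), and ran from -0.093 to 0.038 over omitted libraries. Of the named peaks, Mecom +1171 bp (-0.099 to 0.30 over omitted libraries) and Meis1 +94962 bp (-0.26 to 0.039) changed sign without tamoxifen replicate 1, Mecom +872 bp (-0.22 to 0.010) without oil replicate 2, and Msi2 -81 bp (-0.025 to 0.067) without oil replicate 4 or tamoxifen replicate 3. For these reversals the cause was not tested. With 3 libraries a group, no locus sum could reach an exact p under 0.1, and peaks near 20 tags had standard errors near 0.4 on the log2 scale.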
